A study of Arabidopsis thaliana with 12 samples.

Results

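The transcripts described here are those whose signal was lost most deeply when Arabidopsis thaliana seedlings were given cycloheximide, an inhibitor of cytosolic protein synthesis. A probe set, the group of oligonucleotides that reports 1 transcript on the array, was a member when log2 of (intensity + 10) was lower after cycloheximide than after mock treatment by 3 or more, which is about 8-fold on that scale, in both lots, which are batches that the labels number without saying of what. Of 22746 probe sets that are not Affymetrix controls, 125 (0.55%) met this threshold. The rule set 8 of them aside by name (MCCB, IVD, BCAT4, JAL22, JAL33, SWEET11, COR47 and EXPA8), and 117 members remained. Because the cycloheximide and mock arrays chose the members, values on those 4 arrays are given only as a description.

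The study looked for targets of LEAFY, the transcription factor that turns shoot meristems into flowers. RNA of 9-day-old seedlings was hybridised to 12 arrays in 6 groups, each with 1 array in lot 1 and 1 in lot 2. In 4 groups the seedlings carried LEAFY-GR, LEAFY joined to a glucocorticoid receptor domain, and were collected 8 h into one of 4 treatments, which were a mock treatment, dexamethasone alone, cycloheximide alone and both drugs together. Seedlings of the remaining groups were untreated and were either Landsberg erecta or 35S::LFY, in which a viral promoter drives LEAFY throughout the plant. The promoter of LEAFY-GR and its genetic background are not given in the sources used here, and neither is whether the replicate arrays hold RNA of seedlings grown apart. The p-values therefore cover the spread between these arrays alone, which may be technical. No analysed group was Landsberg erecta given a drug.

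As background, a steroid such as dexamethasone lets a protein joined to the receptor domain enter the nucleus, and cycloheximide added with it is used to separate direct targets from those that need a new protein in between. Cycloheximide also acts on its own. The level of a transcript after treatment reflects both its synthesis and its decay, so a transcript with a short life that needs a continually made protein for its synthesis, or that is destroyed faster when translation stops, can fall within hours.

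The annotation gave 1 gene to 49 members, several genes to 1 and none to 67, so 41.9% of the members could be named against 59.4% of all probe sets. The 48 loci matched in RefSeq lay 15 on chromosome 1, 7 on chromosome 2, 12 on chromosome 3, 7 on chromosome 4 and 7 on chromosome 5, and no pair of them were neighbouring genes. At the threshold, the last members inside included AT5G44020 and AT3G14595, and the larger of the differences in the 2 lots was -3.01 and -3.0047 for them. Just outside lay AT1G09750 at -2.99 and AT2G04790 at -2.98.

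The correlation between the arrays of a group was 0.959 to 0.979, and the median intensity of an array was 49.8 to 69.4. As a sign of RNA quality, the GAPDH control's 3' signal over its 5' signal was 1.58 and 1.47 on the dexamethasone arrays and 1.21 and 0.98 with cycloheximide added. For the actin control it was 5.36 and 4.21 against 4.11 and 2.73. For ubiquitin it was 1.99 and 1.68 against 2.27 and 1.63. The ratios of GAPDH and actin were thus lower with cycloheximide in each lot and that of ubiquitin higher in lot 1 and slightly lower in lot 2, and their part in the results below was not tested. Few markers of cell types were named on the array. Among them, RCA, the Rubisco activase of leaf mesophyll, was at 6291.5 and 7609.5 with dexamethasone and at 6227.1 and 6084.5 with cycloheximide added, while the meristem marker CLV3 was between 2.4 and 6.4 on all 12 arrays. The root hair markers EXPA7 and EXPA18 and the guard cell marker FMA did not pass the test between these groups either (adjusted p = 0.366, 0.0562 and 0.574, limma).

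On the arrays that did not choose them, the members were well above the typical probe set in every group without cycloheximide and below it in the group with cycloheximide. The rule asked for a high level after mock treatment, and all 117 members had at least 100 units on both mock arrays. High levels in the other groups without cycloheximide are therefore not independent of the rule. The median over members of the group mean intensity was 602.5 with dexamethasone, 699.0 in Landsberg erecta and 641.4 in 35S::LFY, where the median over all probe sets was 63.1, 65.3 and 60.5. With dexamethasone and cycloheximide it was 35.0, where the median over all probe sets was 53.4. Of the 117 members, 106 (90.6%) had at least 100 units on both dexamethasone arrays, against 34.9% of all probe sets. On both Landsberg erecta arrays it was 110 (94.0% against 36.9%), and on both 35S::LFY arrays 108 (92.3% against 35.7%). On both arrays with dexamethasone and cycloheximide it was 20 (17.1% against 31.1%). In that last group 28 members were below 10 units on both arrays, as were 2679 of all 22746 probe sets. For the arrays the rule used, the median was 700.5 after mock treatment and 36.6 after cycloheximide.

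**Figure D1:**
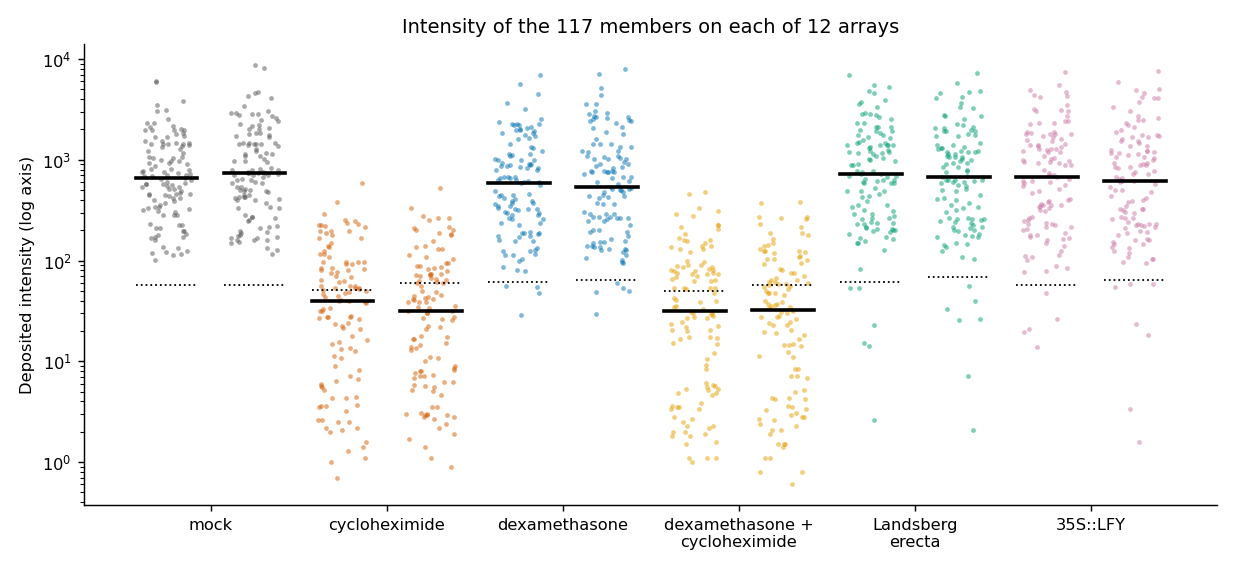
Deposited intensity (log axis) of the 117 members on each of the 12 arrays, 2 arrays per group with lot 1 on the left; each point is a probe set, the solid line is the median of the members and the dotted line the median of all probe sets. The member median is between 531.3 and 735.9 on the 8 arrays without cycloheximide and between 31.4 and 39.8 on the 4 arrays with it.

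The loss with cycloheximide was measured a second time in seedlings that also received dexamethasone, on arrays the rule did not use. All 117 members were lower with dexamethasone and cycloheximide than with dexamethasone (limma on log2(intensity + 10), adjusted p under 0.05, highest 0.00232). In this comparison 27.0% of all probe sets were called lower and 41.7% in either direction. The typical probe set was dimmer than the members, and changes on this scale understate those of dim probe sets. The median log2 change of the members was -3.59, with a middle range of -4.07 to -3.16, while the median of all probe sets was -0.17. Both arrays with cycloheximide were below both arrays without it for every member, as was so for 9522 of the 22746 probe sets. In 114 of 117 the 2 arrays were also below every Landsberg erecta and 35S::LFY array, a count not made over all probe sets. Expressed as remaining signal, a median of 5.71% of the dexamethasone level was left, and more than 10% was left for 22 members; for the 28 members below 10 units the share is uncertain, since the distance of such values from background is unknown. The arrays carry scaled bulk RNA, so fewer cells expressing a transcript and less transcript per cell cannot be told apart. Scaling the arrays on the added hybridisation controls instead shifted the median of all probe sets by -0.21, and making array medians equal shifted it by 0.16; both shifts are small beside the members' change.

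**Figure D2:**
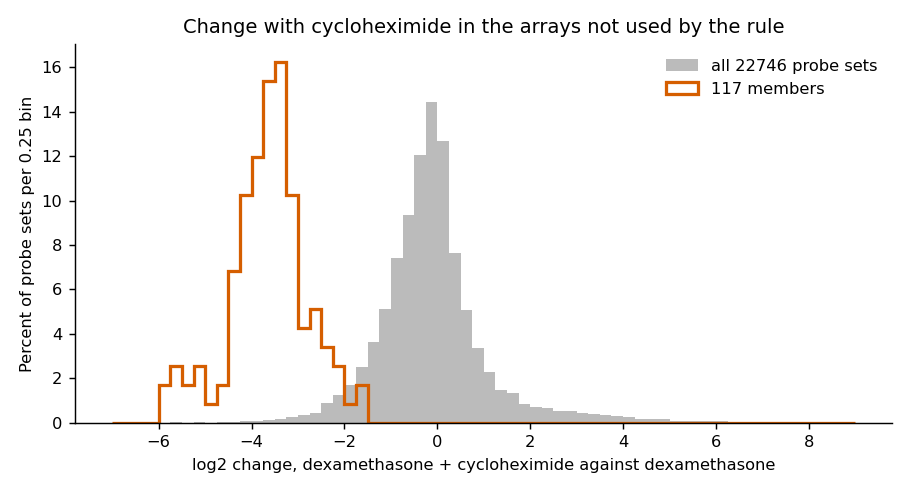
Percent of probe sets (vertical axis) by log2 change of dexamethasone with cycloheximide against dexamethasone, in bins of 0.25; grey is all 22746 probe sets and the orange outline the 117 members. The members lie between -5.98 and -1.56 with a median of -3.59, to the left of the bulk of the array at -0.17.

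The same threshold applied to these arrays was met by 117 probe sets (0.514% of all), which by coincidence is the number of members. The lists shared 76 probe sets, or 65.0% of each, and 4 of the 8 genes left out by name were also among the second list. Of the members, 96 had a mean change of -3 or less over the lots, 18 lay between -3 and -2, and 3 were above -2.

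The named members are described by protein family. These families are background knowledge of the loci, were assembled after the member names were known, and cover 30 of the 49 named members. All values are intensities in lot 1 and lot 2, and each change is a difference of log2(intensity + 10) with its standard error from limma, from 2 arrays a group.

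**Figure D3:**
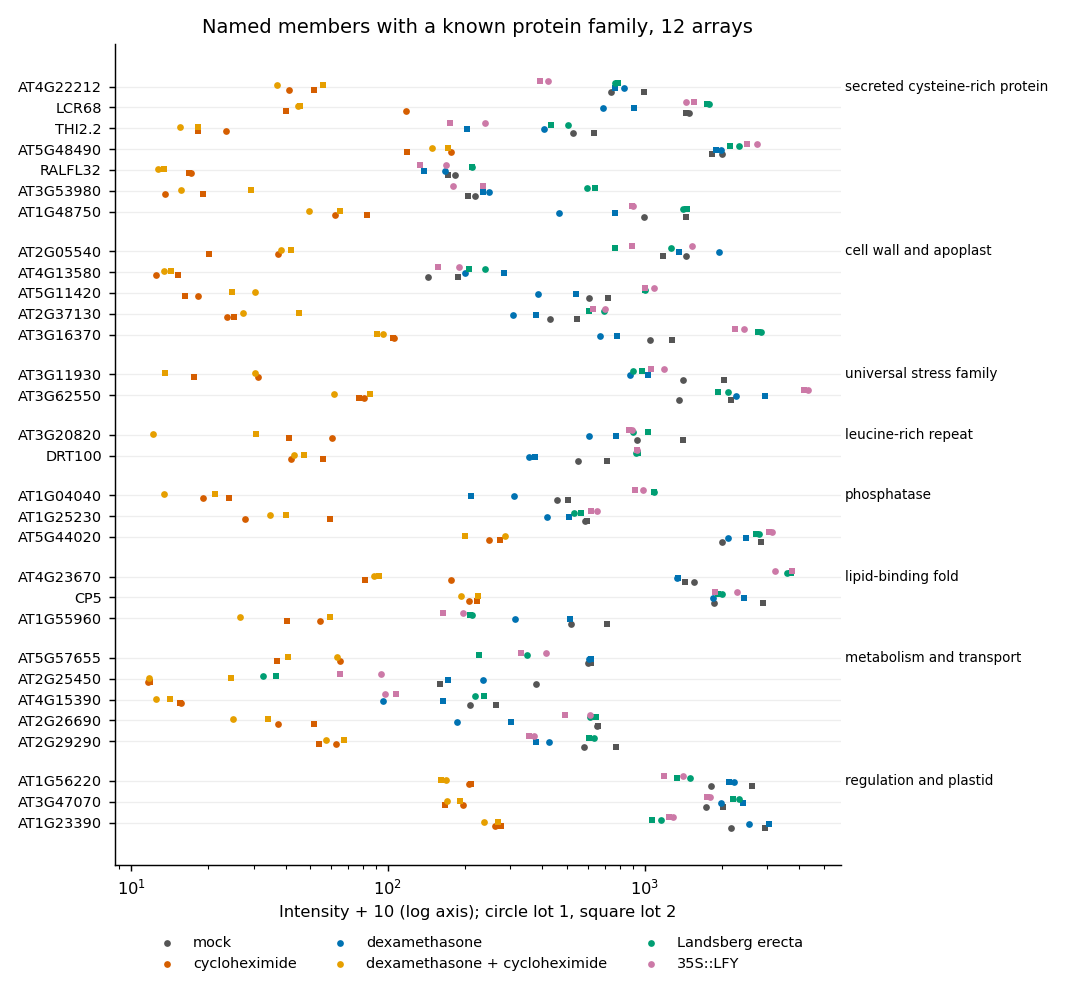
Intensity + 10 (log axis) of the 30 named members with a known protein family on all 12 arrays, grouped by family; circles are lot 1, squares lot 2, and colours mark the 6 groups. Within each gene, the 4 arrays with cycloheximide lie to the left of the 8 arrays without it.

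Small secreted proteins held together by cysteine bridges made the largest family, with 7 members and a median change of -3.60. LCR68, a plant defensin, read 678.4 and 900.9 with dexamethasone and 34.9 and 35.7 with cycloheximide added, a change of -4.13 ± 0.14 (adjusted p = 1.44e-07). It read 1764.8 and 1737.2 in Landsberg erecta and 1444.0 and 1553.3 in 35S::LFY, so the cycloheximide arrays stood apart from all others. For THI2.2, a thionin of the antimicrobial peptides that plants store or secrete, the values were 394.1 and 194.2 with dexamethasone and 5.5 and 8.3 with cycloheximide added (-4.09 ± 0.30, adjusted p = 4.99e-06). RALFL32, of the RALF peptides that bind receptor kinases at the cell surface, read 156.5 and 128.4 and then 2.7 and 3.5 (-3.54 ± 0.21, adjusted p = 1.58e-06). For both genes every array with cycloheximide was far below every array without it. The defensin-like AT4G22212 changed by -4.14, and 3 members of the lipid-transfer family, small proteins that bind lipids, changed by -3.60 (AT5G48490), -3.49 (AT3G53980) and -3.40 (AT1G48750).

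Proteins of the cell wall and the space around it made up 5 members, with a median change of -4.06. AT2G05540, a glycine-rich protein, read 1941.3 and 1351.6 with dexamethasone and 28.4 and 31.8 with cycloheximide added (-5.35 ± 0.30, adjusted p = 9.96e-07). AT4G13580, of the dirigent family that guides the coupling of lignols, read 189.2 and 273.1 and then 3.5 and 4.3 (-4.10 ± 0.22, adjusted p = 8.46e-07). AT5G11420, a cell wall protein of the DUF642 family, changed by -4.06, the class III peroxidase AT2G37130 by -3.28 and the GDSL lipase AT3G16370 by -2.95. The GDSL lipase kept more signal than the others, at 85.8 and 81.0 after cycloheximide.

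The members of the universal stress protein family, small proteins that bind nucleotides in many of their relatives, were among the most depleted. AT3G11930 read 864.8 and 1024.2 with dexamethasone and 20.3 and 3.6 with cycloheximide added, a change of -5.55 ± 0.30 (adjusted p = 8.46e-07). AT3G62550 read 2263.1 and 2938.2 and then 51.8 and 75.3, a change of -5.16 ± 0.18 (adjusted p = 1.49e-07). In untreated seedlings AT3G62550 was at 2110.7 and 1925.8 in Landsberg erecta and at 4317.5 and 4176.5 in 35S::LFY. These groups did not overlap, but the change of 1.07 ± 0.18 between them missed the threshold (adjusted p = 0.0589).

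Both leucine-rich repeat proteins fell. AT3G20820 read 597.8 and 766.6 with dexamethasone and 2.2 and 20.6 with cycloheximide added (-5.15 ± 0.34, adjusted p = 2.72e-06), with the cycloheximide arrays far apart from each other on the log scale. DRT100, first isolated as a plant sequence that raised DNA damage tolerance in bacteria, read 345.2 and 364.8 and then 33.1 and 37.0 (-3.02 ± 0.11, adjusted p = 1.66e-07). The 3 phosphatases, which release phosphate from organic compounds, changed by -3.92 (AT1G04040), -3.62 (AT1G25230, a purple acid phosphatase) and -3.26 (AT5G44020).

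Among members with a lipid-binding fold, the Bet v 1 relative AT4G23670 read 1330.4 and 1335.4 with dexamethasone and 78.2 and 82.2 with cycloheximide added (-3.90 ± 0.12, adjusted p = 1.23e-07). The START-domain protein CP5 read 1833.9 and 2433.2 and then 183.2 and 213.8 (-3.35 ± 0.17, adjusted p = 5.53e-07). A second START-domain protein, AT1G55960, changed by -3.33. For each of these genes the arrays with cycloheximide were below all arrays without it.

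Enzymes and a transporter formed a mixed group of 5. AT2G25450, a dioxygenase that hydroxylates glucosinolate side chains, read 225.8 and 162.3 with dexamethasone and 1.8 and 14.6 with cycloheximide added (-3.56 ± 0.38, adjusted p = 5.6e-05). AT2G26690, of the NRT1/PTR transporter family, read 176.1 and 291.2 and then 15.0 and 24.1 (-3.02 ± 0.24, adjusted p = 8.31e-06). The xylose isomerase relative AT5G57655 changed by -3.59, the BAHD acyltransferase AT4G15390 by -3.23 and the short-chain dehydrogenase AT2G29290 by -2.69.

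Of the regulatory and plastid members, the kelch-repeat F-box protein AT1G23390, from a family that picks proteins for breakdown, read 2550.2 and 3034.2 with dexamethasone and 226.7 and 259.2 with cycloheximide added (-3.47 ± 0.13, adjusted p = 1.74e-07). The dormancy and auxin associated relative AT1G56220 changed by -3.72 and the thylakoid phosphoprotein AT3G47070 by -3.60. In all 3, the cycloheximide arrays read 150.7 or more and were far below the arrays without cycloheximide.

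The most negative change of all members belonged to AT4G39675, to which no role is given here. It read 913.7 and 527.6 with dexamethasone and 1.5 and 0.8 with cycloheximide added, a change of -5.98 ± 0.24 (adjusted p = 2.19e-07). Readings this low have no known distance from background, so no remaining share is given. AT1G19530 changed by -5.71, AT1G62480 by -4.79 and AT1G13930 by -4.35. At the other end stood AT5G22580, at 48.2 and 50.4 with dexamethasone and 9.1 and 7.1 with cycloheximide added (-1.71 ± 0.21, adjusted p = 0.000145). Its dexamethasone arrays were already far below its mock arrays, at 330.8 and 272.5. AT3G14595 changed by -2.15 and AT5G57785 by -2.59. The 49 named members had a median of -3.56 and the 68 others -3.69.

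Few members were called as different with LEAFY driven by the 35S promoter, on 2 arrays a group. Between 35S::LFY and Landsberg erecta, both untreated, 1 of the 117 members (0.855%) was called, against 0.299% of all probe sets. The members' median log2 change was -0.06 where that of all probe sets was -0.04. No member was higher in 35S::LFY by limma at an adjusted p under 0.05; at an unadjusted p under 0.05, 9 were higher and 21 lower, or 7.69% and 17.9% of members against 3.05% and 3.85% of all probe sets. The called member, the unnamed probe set 249867_at, named here after its values were seen, read 670.1 and 629.3 in Landsberg erecta and 269.1 and 263.5 in 35S::LFY (-1.25 ± 0.18, adjusted p = 0.0343). That call was lost when any 1 of the 4 arrays was left out, where the change was -1.30 to -1.21. It was also lost with lot as a block, a pseudocount of 1, equal array medians, quantile normalisation or no trend. The 2 lower members called with quantile normalisation were others. Differences of at least 2-fold were seen in 12 members, 10.3% of them against 1.26% of all probe sets, whose typical intensity was lower. AT3G53980, the lipid-transfer relative, had 587.3 and 632.3 in Landsberg erecta and 170.2 and 224.9 in 35S::LFY without passing the test (-1.59 ± 0.27, adjusted p = 0.0589).

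The members differed far more between dexamethasone-treated LEAFY-GR seedlings and untreated Landsberg erecta. Genotype, drug and handling change together between these groups, and this comparison cannot tell them apart. Mock-treated LEAFY-GR seedlings share genotype and handling with the first group but had no dexamethasone. The rule asked for a high level in those mock-treated seedlings, so the direction is not independent of how members were chosen. Differences from mock treatment are therefore given below without a test. In all, 61 members were called, 40 lower (34.2% of members) and 21 higher (17.9%), against 6.24% and 5.21% of all probe sets, whose typical intensity was lower. Counting both directions, 52.1% of members and 11.4% of all probe sets were called. Leaving out each array in turn kept 36 of the 61, with 23 lower and 13 higher.

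Lower members came from several families. AT1G04040, the acid phosphatase, read 298.8 and 201.3 with dexamethasone and 1079.0 and 1078.7 in Landsberg erecta (-2.09 ± 0.23, adjusted p = 0.000564). The GDSL lipase AT3G16370 read 658.2 and 773.5 against 2839.7 and 2763.8 (-1.96 ± 0.12, adjusted p = 3.21e-05). AT1G28400, with no role given here, had 99.7 and 122.2 against 698.0 and 687.3 (-2.54 ± 0.16, adjusted p = 2.91e-05). In none of these did the groups overlap, and 35S::LFY was on the side of Landsberg erecta. Mock minus Landsberg erecta was -1.18 for AT1G04040 and -1.66 for AT1G28400, and dexamethasone minus mock was -0.91 and -0.89, without a test. DRT100 (-1.36), AT4G23670 (-1.44) and LCR68 (-1.15) were lower too, although LCR68 lost the call in a fit to all 12 arrays (adjusted p = 0.064). The transporter relative AT2G26690 (-1.41), AT1G13930 (-1.77) and AT1G48750 (-1.26) were lower as well, but lost the call without lot 2 of Landsberg erecta (adjusted p = 0.0508, 0.053 and 0.054).

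Higher members were led among the named ones by the dioxygenase AT2G25450, at 225.8 and 162.3 with dexamethasone and 22.7 and 26.6 in Landsberg erecta (2.54 ± 0.38, adjusted p = 0.00269). 35S::LFY lay between, at 83.8 and 55.1. AT1G73120 (2.24), AT1G19530 (2.05) and the F-box protein AT1G23390 (1.32) were also higher. Mock minus Landsberg erecta was 2.83 for AT2G25450, 2.30 for AT1G73120, 2.12 for AT1G19530 and 1.18 for AT1G23390, without a test. In the same order, dexamethasone minus mock was -0.29, -0.06, -0.07 and 0.14. AT4G39675 (1.45) was higher, with the call lost without lot 1 of Landsberg erecta (adjusted p = 0.0547). AT5G57655 (1.12) and AT1G56220 (0.62) were called but lost the call in 3 and 2 of the 4 fits with an array left out. By family, 3 of 5 cell wall members and 3 of 7 secreted cysteine-rich members were lower, beside 34.2% of all members and 6.24% of all probe sets, and none of either was called higher. With each array left out in turn, AT5G11420 and AT3G16370 of the cell wall members and LCR68 of the secreted ones kept the call in all 4 fits, whereas AT2G37130 and AT3G53980 lost it in 3 (adjusted p of up to 0.175 and 0.0882).

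**Figure D4:**
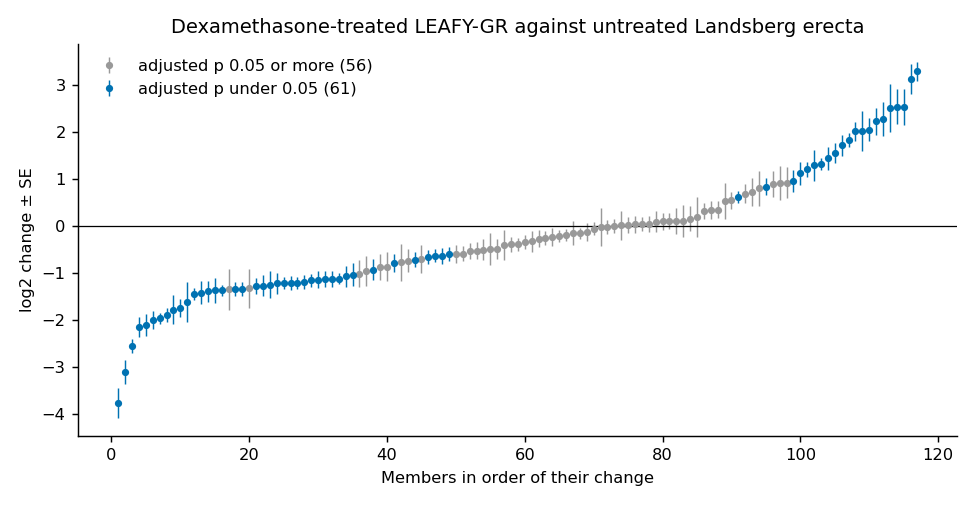
Log2 change ± SE (limma) of dexamethasone-treated LEAFY-GR seedlings against untreated Landsberg erecta for the 117 members in order of change; blue marks the 61 with an adjusted p under 0.05. Changes run from -3.76 to 3.29, with 40 called members below 0 and 21 above.

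Comparisons that use the mock or cycloheximide arrays share arrays with the rule and are given without a test. Neither of the counts below was made over all probe sets. Between dexamethasone and mock treatment the members' median log2 difference was -0.29, from -2.39 to 0.66, with 16 members at -1 or less and none at 1 or more. The rule asked for high mock values, which favours differences below 0 here. AT5G22580 was at the lower end, as its values above show, and AT2G26690 read 643.9 and 647.7 after mock treatment and 176.1 and 291.2 with dexamethasone. Adding dexamethasone to cycloheximide gave a median of -0.05, from -1.37 to 1.35, with 6 members at -1 or less. The single member at 1 or more was AT1G73120, which read 3.5 and 7.1 with cycloheximide and 29.6 and 27.8 with both drugs, all near the bottom of the scale. Between mock treatment and Landsberg erecta the differences ran from -1.66 to 3.86 with a median of -0.11.

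Genes of related pathways were read from lists drawn up with earlier results of these data known. A gene is called measured where the annotation gave it alone to a probe set. No list holds a named member, and the 68 unnamed members could not be matched. Measured were 4 of 21 entries for aliphatic glucosinolates, 11 of 17 for branched-chain amino acid breakdown and 10 of 21 for expansins. For xyloglucan endotransglucosylases it was 7 of 21, for light harvesting and Rubisco 4 of 23 and for cold response 4 of 13. The counts of calls stand against the 27.0% of all probe sets called lower in this comparison and the 14.7% called higher. For dexamethasone with against without cycloheximide, 4 of 4 measured genes on the aliphatic glucosinolate list were lower, with a median of -3.12. Besides BCAT4, set aside by the rule, they were AOP3 (-3.21), AT2G31790 (-3.04) and AOP1 (-0.94). That list leaves out the member AT2G25450 (-3.56), described above as hydroxylating glucosinolate side chains, so it does not hold every measured glucosinolate gene. Of 11 measured genes of branched-chain amino acid breakdown, 6 were lower and none higher, with a median of -0.89; the 6 include MCCB (-4.24) and IVD (-2.79), which had met the rule and were set aside. MCCA, a subunit of methylcrotonyl-CoA carboxylase, read 988.6 and 1023.4 with dexamethasone and 112.6 and 89.6 with cycloheximide added (-3.20 ± 0.17, adjusted p = 8.46e-07), and the dehydrogenase ALDH6B2 changed by -2.77. ETFBETA of the same pathway did not pass (-0.44 ± 0.19, adjusted p = 0.0923).

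Enzymes and proteins that remodel the cell wall gave mixed counts. Of 10 measured expansins, none was higher and 1 was lower, EXPA8 (-1.04), which had met the rule and was set aside. Of 7 xyloglucan endotransglucosylases, which cut and rejoin wall xyloglucan, 1 was lower and 4 were higher. Among the latter, XTH18 read 228.0 and 145.4 with dexamethasone and 6742.6 and 6694.3 with cycloheximide added (5.13 ± 0.21, adjusted p = 1.93e-07). Among 4 light-harvesting and Rubisco genes, 3 were lower, by a log2 change of -2.02 for LHCB4.2 and -0.57 for LHCB4.1. Of 4 cold-response genes 3 were lower: COR47 (-3.17), which had met the rule and was set aside, LTI30 (-1.81) and COR15A (-1.03, adjusted p = 0.0481).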

How the data were processed

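RNA of 9-day-old seedlings was measured on 12 Affymetrix arrays. The deposited values are linear intensities, 1 per probe set with 1 decimal, without detection calls. For the software, nothing is given in the sources used here. The authors had scaled the intensities, judging from the values: with 2% cut from both tails, each array averaged 150.01 to 150.02. No further normalisation was applied.

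Groups and lots came from the labels. The labels mark lot as a shared batch, so lot pairs the arrays; deviations of same-lot arrays correlated at 0.049 to 0.334. A model with 1 mean for each group was fitted with limma 3.58.1 (R 4.3.3) to log2(intensity + 10) on the 8 arrays the rule did not use (4 residual degrees of freedom, intensity trend), with Benjamini-Hochberg adjustment over 22746 probe sets and calls at 0.05. Changes on this scale understate those of dim probe sets. The script was tested on simulated data. The number of arrays limits precision.

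Of the array's annotation, 13436 of 13513 probe sets with 1 gene matched a RefSeq locus (TAIR10.1, names and gene order only). Members and gene lists were chosen with earlier results of these data known. Named genes are members with a symbol, those of a family with the highest mean, the 10 lowest and 10 highest changes with cycloheximide, up to 10 called in each direction elsewhere, and 5 on each side of the threshold; for lists, up to 4 with the smallest p. Alternatives were pseudocounts of 1 and 50, a mean intensity filter of 30, other scalings, all 12 arrays, lot as a block, no trend, other rule thresholds and leaving out each array.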

Additional observations from a re-analysis of the deposited data

How the results depend on the processing

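With dexamethasone and cycloheximide against dexamethasone, all members tested stayed lower under every alternative tried, with an adjusted p of at most 0.0183 (a filter on mean intensity of 30 left 115 of them to test). Their median moved to -4.13 with a pseudocount of 1, -2.72 with 50, -3.38 with equal array medians, -3.86 with hybridisation controls and -4.29 over members at -4 or less. The split of all calls, 6136 lower and 3338 higher, became 4590 and 4112 with equal medians, 7817 and 2607 with hybridisation controls and 5470 and 3978 with quantile normalisation. For 35S::LFY against Landsberg erecta, the 1 lower member became 0 with a pseudocount of 1, equal medians, no trend or the replicate block (paired by lot), 5 with a pseudocount of 50, 4 with the filter, 2 with quantile normalisation or all 12 arrays, and 0 to 0 on leaving out an array; higher members became 2, 3 and 1 with a pseudocount of 50, the filter and quantile normalisation. The 68 probe sets called became 111 with the filter, 31 with equal medians, 39 with the replicate block, 5 without the trend and 1 to 3 on leaving out an array. For dexamethasone against Landsberg erecta, leaving out an array gave 23 to 36 lower members, the lowest without Landsberg erecta in lot 2, and 1142 to 2379 probe sets called in place of 2604; without lot 1 or lot 2 of Landsberg erecta it was 1142 and 1204. The members' median there was -0.16 with hybridisation controls and 0.03 over members at -4 or less. Hybridisation controls turned the split of all calls from 1419 lower and 1185 higher to 798 and 1852. The number of members was 237 with a pseudocount of 1, 43 with 50 and 22 at a threshold of -4. At -2, 622 probe sets met the threshold. The rule's cap of 300 probe sets, reached in no other setting, then left 292 members once the genes set aside by name were taken out. No called member changed sign under any alternative fit. The 35S::LFY against Landsberg erecta median, which carries no test, went from -0.06 to 0.05 with equal medians. The replicate block changed the call of no named member apart from AT3G45160 and AT4G15390, gained as lower in dexamethasone against Landsberg erecta (adjusted p = 0.0331 and 0.0496). Hybridisation controls and members at -4 or less were added after seeing the data. The causes were not tested. Without detection calls, how far dim values stand above background is unknown.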

Other observations

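If the dexamethasone level stood for the starting level, the drug acted for the whole 8 h and the array scaling held, the fall of a member would set the longest mean halving time of its transcript. The median over the 117 members was 2.23 h, from 1.34 h for AT4G39675 to 5.13 h for the probe set 253255_at. That probe set was picked here after its values were seen. The 5.13 h depends on taking the dexamethasone level as the start. Between cycloheximide and mock treatment, which chose the members, 253255_at changed by -3.49, against -1.56 here. The same arithmetic on that larger fall would give a shorter time. On those arrays every one of the 117 members changed by -3.02 or less, so none would reach 5.13 h. All these times are arithmetic on 2 arrays a group and not measured half-lives. Renewed synthesis and decay were not followed separately.

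The unnamed probe sets 258527_at and 260221_at, also singled out after their values were seen, had the highest and the lowest change between dexamethasone-treated LEAFY-GR seedlings and Landsberg erecta. The former read 1646.3 and 1792.4 against 184.5 and 149.5 (3.29 ± 0.20, limma adjusted p = 2.84e-05). After mock treatment it read 1173.2 and 1363.4, and 35S::LFY lay near Landsberg erecta at 266.0 and 209.0. The latter read 125.2 and 131.5 against 1663.3 and 2076.2 (-3.76 ± 0.32, limma adjusted p = 0.000128), and after mock treatment it read 636.3 and 735.9.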
